A study of Mus musculus with 9 samples.

Results

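GFP positive cells that carry PAX3-FKHR were compared with GFP negative cells of the same region, in 6 of the 9 arrays of the series. The members were chosen by their titles, 3 arrays labelled somite of PAX3FKHR and 3 labelled somite of GFP-, with all 45037 probe sets that are not Affymetrix controls, read as 18193 genes. The other 3 arrays, of GFP positive cells of Pax3 GFP/+ embryos, served to say which somite genes the fusion cells kept, lost or gained. By title, source and tissue the cells came from interlimb somites, hypaxial part, of mice at embryonic day 9.5, although the labels' treatment text also mentions forelimb buds. In Pax3 GFP/+ embryos 1 Pax3 allele carries GFP and the other is normal. In Pax3 PAX3-FKHR/GFP embryos 1 allele carries GFP and the other a floxed PAX3-FKHR-IRESnlacZ, activated by a PGK-Cre transgene that is broadly active, so that no normal Pax3 allele remained. The labels give no Pax3 genotype for the GFP negative cells, called GFP- below, and the study's text takes them from Pax3 GFP/+ embryos in its comparisons but lists Pax3 +/+ as the remaining hybridised group. Tissue was pooled from many embryos of a mixed C57BL6 and DBA2 background and sorted by fluorescence, and the study allows that some neural crest cells were included. The study's methods call the 3 replicates of each group biological and do not say how embryos were divided among them, and the p-values measure the spread between these samples.

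Pax3 is a paired-box homeodomain factor that marks the dermomyotome, an epithelium on the dorsal side of the somite that gives rise to skeletal muscle progenitors. The ventral somite forms sclerotome, the source of vertebrae and ribs, and the determination factors Myf5, Myod1, Myog and Myf6 lead progenitors into muscle. PAX3-FKHR, found in alveolar rhabdomyosarcoma, joins the DNA binding part of PAX3 to the strong activation domain of FOXO1, a forkhead factor with the older name FKHR.

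Array medians lay between 4.63 and 4.68 on the log2 scale, and correlations over probe sets were 0.996 to 0.998 within a group and 0.987 to 0.988 between PAX3-FKHR/GFP and GFP- arrays. A gene was called at a limma adjusted p under 0.05 and a log2 difference of at least 0.5, which is 1.41-fold. By this rule 478 genes were higher (2.63% of genes tested) and 946 lower (5.2%) in the fusion cells than in GFP- cells, and 178 and 415 of these differed by at least 2-fold. In GFP/+ cells 349 genes were higher (1.92%) and 918 lower (5.05%) than in GFP- cells. The median log2 difference over all genes was 0.01. Differences are given with the standard error of the fit, on the log2 scale, with 3 arrays per group. In bulk arrays fewer cells of a type and less RNA per cell cannot be told apart.

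The sort was checked first on Pax3 and Foxo1, the genes whose parts make up the fusion. Pax3 read 8.25, 8.31 and 8.30 in the 3 PAX3-FKHR/GFP arrays, 9.06, 9.29 and 9.24 in the GFP/+ arrays and 4.48, 4.82 and 4.20 in the GFP- arrays. Both GFP positive groups lay far above the GFP- cells, by 3.78 ± 0.13 for the fusion (adjusted p = 6.55e-09), and the fusion cells lay below GFP/+ by a log2 difference of -0.91 ± 0.08. The other Pax3 probe sets were higher in the fusion cells by 3.30 and 5.74. Foxo1 was higher than in GFP- cells by 0.65 ± 0.09 (adjusted p = 0.000543), and 2 of its 3 other probe sets were called as well, at 0.90 and 0.67, while the third gave 0.12. GFP/+ cells, which carry no fusion, were above GFP- cells by 0.4997 ± 0.08, just under the limit of 0.5. The direct Foxo1 difference between fusion and GFP/+ cells was 0.15 (95% interval -0.02 to 0.33) and was not called. Those of its other probe sets, 0.496, 0.27 and 0.07, were not called either. Which part of each transcript these probe sets read is not given in the sources used here, so the values do not tell the fusion transcript from the GFP allele of Pax3 or from the animal's own Foxo1.

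Markers of blood, epithelium, lateral mesoderm and vessels were lower in the fusion cells, while those of neural crest were mostly higher or not called. Of 12 primitive erythroid genes 10 were lower in the fusion cells, with a median of -3.13, and of 18 epithelial genes of ectoderm and endoderm 15 were lower, with a median of -2.99. Lateral and intermediate mesoderm had 16 of 21 lower and endothelium 18 of 24, with medians of -1.48 and -0.84. In these 4 lists 0 of 75 members were higher by limma, 0 at an unadjusted p under 0.05 and 0 by the local pooled error test of the study's methods. Of 12 leukocyte genes 2 were lower and 0 higher, with 2 higher at an unadjusted p under 0.05 and 1 higher by the local pooled error test. Embryonic alpha-type globin Hba-x, the largest fall of all genes, read 6.42, 6.38 and 6.39 in fusion cells and 13.24, 13.12 and 13.08 in GFP- cells, a difference of -6.74 ± 0.08. Hand2 (-4.64 ± 0.10) and Gata6 (-4.22 ± 0.11), regulators of lateral mesoderm, Foxa1 (-4.51 ± 0.13) of endoderm and Dsg2 (-4.28 ± 0.08), a desmosomal cadherin, were also among the 10 largest falls. The mean log2 level of the erythroid list was 5.66 to 5.71 in the fusion arrays, 5.55 to 5.60 in GFP/+ and 8.74 to 8.83 in GFP- arrays. The GFP- arrays lay apart from both GFP positive groups. Of the defining globins Hbb-y still read 10.52 ± 0.16 (mean and SD) in fusion cells, and no marker was at 0 on these log2 values. The part of these cell types in the results below was not tested.

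Neural markers were split. Of 18 neural tube and neuron genes 10 were lower in fusion cells, among them the motor neuron factors Olig2 (-2.35 ± 0.15) and Nkx6-1 (-2.26 ± 0.12). The 3 that were higher were Dbx1, Olig3 and Neurog1. Neural crest genes went the other way, with 6 of 12 higher and 1 lower, Tfap2c at -0.95 ± 0.11. Sox10, a factor of migrating crest and glia, was higher by 3.57 ± 0.09, Foxd3 by 3.48 ± 0.15 and Erbb3 by 2.69 ± 0.11. The mean level of the crest list ran from 8.41 to 8.63 in fusion, 8.29 to 8.38 in GFP/+ and 7.39 to 7.50 in GFP- arrays, higher in both GFP positive groups. The part of crest cells in the results below was not tested. Of 17 proliferation genes 0 were called by limma and 0 by the local pooled error test, while 2 were higher and 1 lower at an unadjusted p under 0.05, and Mki67 differed by -0.27 ± 0.10 (95% interval -0.50 to -0.04).

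**Figure D1:**
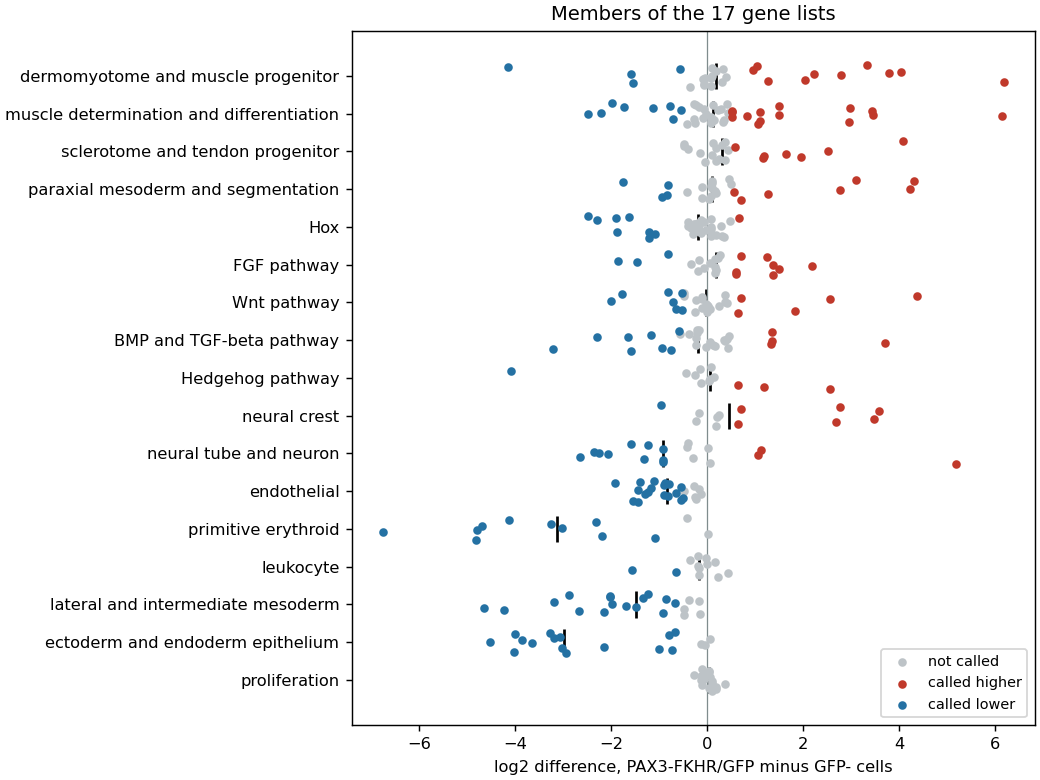
Log2 difference between PAX3-FKHR/GFP and GFP- cells (x axis) for each measured member of the 17 gene lists (y axis), 1 point per gene, coloured by call, with a black bar at each list's median. The somite lists spread to both sides of 0, while the erythroid, epithelial, lateral mesoderm and endothelial lists lie to the left, with medians of -3.13, -2.99, -1.48 and -0.84.

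Somite identity was described with 5 lists of 148 measured genes in all. A gene was counted as kept when it was called higher than GFP- in both PAX3-FKHR/GFP and GFP/+ cells, as lost when higher in GFP/+ only, and as gained when higher in PAX3-FKHR/GFP only. By these rules 37 of the 148 genes were kept, 14 lost and 2 gained, against 1.35%, 0.572% and 1.28% of all genes. The lists were chosen with earlier results of these data known, so these shares do not test somite identity. Both sides use the same 3 GFP- arrays, so these counts are not independent of each other, and each difference was tested in a direct fit of PAX3-FKHR/GFP against GFP/+. In that fit 14 of the 37 kept genes were lower in the fusion cells, 9 were higher and 14 were not called, where 0.715% of all genes were lower and 1.31% higher. Pax3, whose GFP allele was used for the sort, was counted among the 37 and among the 14 that were lower. Of the 245 genes kept over the whole array 22 were lower and 58 higher. Of the 14 lost genes 6 were lower in the direct fit, and of the 2 gained genes 0 were higher. Without PAX3-FKHR/GFP replicate 3 there was 1 gained gene, and without GFP/+ replicate 1 or without GFP- replicate 1 there were 4. The direct difference of Cdh11 was 0.38 (95% interval 0.10 to 0.67) and that of Hey1 0.19 (95% interval -0.03 to 0.41).

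Of 27 measured genes of dermomyotome and muscle progenitors 10 were higher than in GFP- cells and 4 lower, with a median of 0.20. All 10 were kept. Pax3 is 1 of them, and since the cells were sorted on GFP from a Pax3 allele, its rise over GFP- cells was set by the sort. Dmrt2, a doublesex-related factor of the dermomyotome, read 9.30, 9.42 and 9.58 in the fusion arrays and 3.39, 3.17 and 3.22 in the GFP- arrays. This difference of 6.17 ± 0.10, or 72.1-fold (adjusted p = 3.05e-11), was the largest rise of all genes. Pax7, the close relative of Pax3, read 8.03, 8.15 and 8.21 against 4.10, 4.02 and 4.19, and the GFP/+ arrays lay between the others at 7.52, 7.34 and 7.53. It was higher than in GFP- cells by 4.03 ± 0.09 and higher than in GFP/+ cells by 0.67 ± 0.09. Over all 27 measured members the groups did not overlap for 21, and over all genes for 25.5%.

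Of the kept progenitor genes Pax7, Met, Lbx1 and Vgll3 were above GFP/+ cells in the direct fit as well. Met, the receptor through which progenitors delaminate and migrate, read 8.72, 8.74 and 8.90 in fusion cells, 7.20, 7.02 and 7.05 in GFP/+ and 6.51, 6.59 and 6.61 in GFP- cells. The fusion arrays stood well apart from both others, by 2.22 ± 0.08 over GFP- and 1.70 ± 0.09 over GFP/+ cells, whereas GFP/+ exceeded GFP- by only 0.52 ± 0.07. Another Met probe set was low in every group, with means of 3.60 in fusion, 3.52 in GFP/+ and 3.52 in GFP- cells, and was not called in any comparison. Lbx1, a homeobox factor of migrating progenitors, read 7.03, 7.26 and 7.31 against 5.79, 5.79 and 5.75 and 4.70, 4.13 and 4.43, a stepwise order without overlap. Another Lbx1 probe set was called higher than GFP- at 0.72, but its direct difference of 0.21 was not called. Vgll3, a cofactor of TEAD proteins, was higher than GFP- by 3.34 ± 0.12 and higher than GFP/+ by 1.31 ± 0.11. Eya1 (1.27 ± 0.10), Eya2 (2.05 ± 0.14) and Vgll2 (1.04 ± 0.09) were kept with no call in the direct fit, and Sim1, a factor of the lateral dermomyotome, was kept at 0.96 ± 0.09 but lay below GFP/+ by a difference of -0.66.

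The progenitor list also had genes that were low in all GFP positive cells. Tcf21 (-4.15 ± 0.10) and Msc (-1.58 ± 0.10), known for facial and branchial muscle, Dach2 (-1.53 ± 0.13) and Six2 (-0.57 ± 0.09) were lower in fusion cells, and all 4 were lower in GFP/+ cells too. Six2 was not called with PAX3-FKHR/GFP replicate 1 left out (-0.50). Dach1, a corepressor that works with Eya proteins, was the 1 lost gene here. It read 7.27, 7.57 and 7.49 in fusion arrays, 8.18, 8.20 and 8.02 in GFP/+ and 7.55, 7.41 and 7.57 in GFP- arrays, so that fusion and GFP- cells overlapped and both lay below GFP/+ (direct difference -0.69 ± 0.10, adjusted p = 0.00346). Its other probe sets, at direct differences of -0.50 and -0.41, were not called in that fit or in GFP/+ against GFP- cells. Tbx3 and the chemokine receptor Ackr3 were lower than GFP- in GFP/+ cells only. Tbx3 read 7.75, 7.87 and 8.02 in fusion, 6.94, 6.56 and 6.80 in GFP/+ and 7.81, 7.74 and 7.80 in GFP- cells, and was higher than in GFP/+ by 1.11 ± 0.11 while its difference from GFP- was 0.10 (95% interval -0.09 to 0.28). Fgfr4 depended on the probe set, since the brightest gave -0.04 and another, picked after its value was seen, gave 0.96.

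In the paraxial list 5 genes were kept, and in the sclerotome list 7 were kept and 4 lost. Of 24 paraxial and segmentation genes 7 were higher and 4 lower (median 0.10), and of 21 sclerotome and tendon genes 7 were higher and 0 lower (median 0.32). By the local pooled error test 0 sclerotome genes were lower too, and 3 were lower at an unadjusted p under 0.05. Tcf15, or paraxis, which keeps the somite epithelial, read 10.23, 10.45 and 10.58 in fusion cells, 9.47, 9.53 and 9.51 in GFP/+ and 5.91, 6.23 and 6.22 in GFP- cells. The homeobox gene Meox2 read 9.61, 9.81 and 9.87 against 5.59, 5.69 and 5.34, a difference of 4.22 ± 0.10, and Meox1 was higher by 2.76 ± 0.10. Zic1, of the dorsal somite and neural tube, was higher by 3.10 ± 0.10, and neither Zic1 nor Meox1 was called in the direct fit (95% intervals -0.18 to 0.23 and -0.40 to 0.05). Hes1, a target of Notch, was higher than GFP- by 1.26 ± 0.09 and higher than GFP/+ by 0.68 ± 0.08. Dll3 (-0.93 ± 0.07), Nrarp (-0.82 ± 0.09), Epha4 (-0.83 ± 0.12) and Tbx1 (-1.75 ± 0.12) were lower in both kinds of GFP positive cells. The 2 gained genes were in this list, Hey1 at 0.55 ± 0.08 and the cadherin Cdh11 at 0.71 ± 0.12. Hey1 was not called with PAX3-FKHR/GFP replicate 3 left out (0.49).

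In the sclerotome list Uncx, of the posterior sclerotome, stood out. It read 8.59, 8.85 and 8.90 in fusion cells, 8.03, 8.05 and 8.05 in GFP/+ and 4.82, 4.70 and 4.59 in GFP- cells, the highest in every fusion array, with a direct difference of 0.73 ± 0.09. Pax1, of the ventral sclerotome, read 8.40, 8.45 and 8.55 against 8.92, 9.05 and 9.14 and 5.93, 5.85 and 6.06. It was thus kept at 2.52 ± 0.08, but below GFP/+ by a difference of -0.57. Foxc1, Foxc2 and Foxd1 behaved like Pax1, kept at 1.16, 1.96 and 1.18 and below GFP/+ by differences of -0.54, -0.56 and -0.81. The tendon factor Mkx was higher than GFP- by 1.65 ± 0.11. Pax9, Sox9, Col2a1 and Col9a1 were counted as lost, of which only Col9a1, a cartilage collagen, was lower in the direct fit (-0.67 ± 0.10). Pax9 remained 0.43 above GFP- cells, and another of its probe sets was called higher at 0.63. Without PAX3-FKHR/GFP replicate 3, Sox6 and Tbx18 were called lower, giving 2 lower members in place of 0. With all arrays, another probe set was called lower for Tbx18 (-0.61) and for Sox6 (-0.50), and the remaining Sox6 probe sets were not called.

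Of 6 muscle determination factors, counted with Mef2c and Mef2a, 5 were kept in the fusion cells. In the direct fit 1 of the 6 was higher than in GFP/+ cells and 3 were lower. Of all 43 genes of the muscle list 21 were below their level in GFP/+ cells. Of 43 measured genes 14 were higher than in GFP- cells and 8 lower (median 0.12), whereas in GFP/+ cells 22 were higher and 2 lower (median 0.67). The median of the direct differences was -0.48, and Myf5 and Cdh15 were the 2 genes that were higher. Myf5, the earliest determination factor, read 8.67, 8.85 and 8.87 in fusion, 7.98, 7.92 and 7.83 in GFP/+ and 2.83, 2.66 and 2.47 in GFP- cells. It was the second largest rise of all genes, 6.14 ± 0.11 over GFP- cells, and exceeded GFP/+ by 0.89 ± 0.09. Cdh15, or M-cadherin, was higher than GFP- by 2.95 ± 0.10 and higher than GFP/+ by 0.54 ± 0.08.

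Myog and Myf6 were kept, but below GFP/+ cells. Myog, which drives differentiation, read 7.15, 7.29 and 7.18 in fusion cells, 8.21, 8.57 and 8.53 in GFP/+ and 3.77, 3.51 and 4.04 in GFP- cells. The fusion arrays lay between the other groups without overlap, 3.43 ± 0.12 above GFP- and at -1.23 ± 0.10 from GFP/+. Myf6 likewise read 5.90, 5.96 and 5.96 against 7.03, 7.23 and 7.09 and 4.62, 4.26 and 4.47, with a direct difference of -1.18 ± 0.08. Myod1 was low on the array in every group, at 4.69, 4.82 and 4.69 in fusion and 4.51, 3.89 and 4.24 in GFP- cells. Its difference of 0.52 ± 0.14 passed narrowly (adjusted p = 0.0396), and it was not called with any 1 fusion array or with GFP- replicate 2 or 3 left out (0.36 to 0.67 over the fits without 1 array). Mef2c (0.53 ± 0.08) and the fusogen Mymk (0.51 ± 0.10) also passed narrowly, and Mef2c was not called when fusion replicate 3 was left out (0.47). For Mymk this held for fusion replicate 3 and for GFP- replicates 2 and 3 (0.45 to 0.60 over the fits without 1 array).

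**Figure D2:**
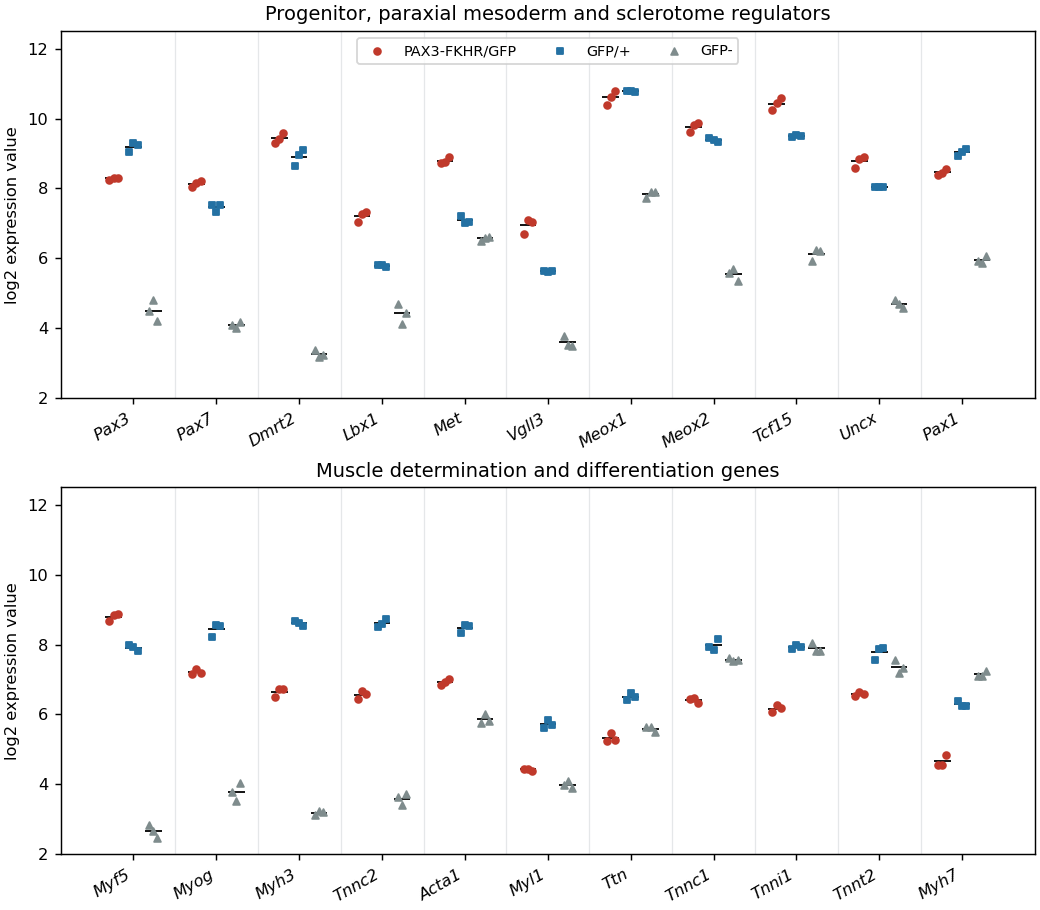
Log2 expression values of single arrays (points) and group means (bars) for regulators of progenitors, paraxial mesoderm and sclerotome (top) and for muscle genes (bottom), in PAX3-FKHR/GFP, GFP/+ and GFP- cells, 3 arrays each. Levels of different genes are not comparable, since each comes from its own probe set. Fusion cells lie above GFP/+ for Met, Lbx1 and Myf5, lie between the other groups for Myog, Myh3 and Tnnc2, and lie below GFP- cells for Tnnc1, Tnni1, Tnnt2 and Myh7.

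Genes of the contractile apparatus are described in 3 groups by their call against GFP- cells. Of 27 measured, 6 were higher than in GFP- cells, 8 were lower and 13 were not called. In the first group embryonic myosin heavy chain Myh3 read 6.50, 6.72 and 6.72 in fusion cells, 8.67, 8.61 and 8.53 in GFP/+ and 3.13, 3.24 and 3.20 in GFP- cells, kept at 3.46 ± 0.09 but -1.96 ± 0.09 from GFP/+. Fast troponin C, Tnnc2, read 6.43, 6.68 and 6.58, 8.51, 8.60 and 8.73 and 3.64, 3.40 and 3.73 in the same order, with the lowest direct difference of the 43 genes, -2.05 ± 0.09 (adjusted p = 2.58e-06). Skeletal actin Acta1 and the myosin light chain Mylpf were kept at 1.07 and 1.11, at direct differences of -1.55 and -1.13. In each of these 4 genes the fusion cells held a smaller excess over GFP- cells than GFP/+ cells did.

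Of the 13 contractile genes not called in fusion cells, only Ttn, Myl1, Tnnt3 and Tpm2 were called higher than GFP- in GFP/+ cells. Titin, Ttn, read 5.23, 5.48 and 5.27 in fusion cells, 6.40, 6.62 and 6.49 in GFP/+ and 5.65, 5.63 and 5.50 in GFP- cells, so that the fusion arrays fell just under the GFP- arrays. The light chain Myl1 read 4.44, 4.44 and 4.39, 5.62, 5.84 and 5.70 and 3.97, 4.08 and 3.90, still 0.44 ± 0.09 above GFP- cells but under the limit of 0.5. Fast troponin T, Tnnt3, differed from GFP- by -0.23 and from GFP/+ by -0.90 ± 0.11. Tpm2 was lost without a call in the direct fit (-0.48), and so were 3 genes of membrane and synapse, the receptor subunits Chrna1 (-0.41) and Chrng (-0.33) and the calcium release channel Ryr1 (-0.48). Tpm2 was called higher than GFP- by 2 of its other probe sets, at 0.64 and 1.02. Each of its other probe sets was called lower than GFP/+ in the direct fit, at -0.76, -0.52 and -0.76, so the missing direct call held for the brightest probe set only.

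In the last group fusion cells lay below the GFP- cells themselves. Of these 8 genes 2 were lower than GFP- in GFP/+ cells too, 5 were lower in fusion cells only, and Cryab was higher in GFP/+ cells. Slow troponin I, Tnni1, read 6.05, 6.26 and 6.17 in fusion cells, 7.87, 8.0 and 7.94 in GFP/+ and 8.05, 7.80 and 7.82 in GFP- cells. GFP/+ and GFP- arrays thus overlapped, and the fusion arrays lay apart at -1.73 ± 0.09 from GFP- and -1.78 ± 0.08 from GFP/+. Slow and cardiac troponin C, Tnnc1, read 6.45, 6.48 and 6.34, 7.94, 7.83 and 8.16 and 7.60, 7.52 and 7.55, a difference of -1.13 ± 0.08 from GFP- cells. Tnnt2 (-0.77 ± 0.10), the myosin chaperone Unc45b (-1.98 ± 0.15), Myh7 (-2.49 ± 0.10) and Myl4 (-2.20 ± 0.15) were lower too, and all 6 were lower than GFP/+ in the direct fit. Myom1 (-0.54 ± 0.10) was not called when replicate 3 of the fusion or of the GFP- cells was left out (-0.62 to -0.49 over the fits without 1 array). Cryab, a chaperone of muscle, was higher than GFP- in GFP/+ cells (0.72 ± 0.13) and lower in fusion cells (-0.71 ± 0.17), but its other probe sets were not called against GFP- cells, and it was not called in fusion cells when fusion replicate 1 or 2 or any 1 GFP- array was left out (-0.90 to -0.49). Several of these genes are used by heart as well as by skeletal muscle. Myh6 and Myl7, markers of heart muscle picked after their values were seen, read 7.79, 7.51 and 7.63 and 7.97, 8.0 and 8.26 in GFP- arrays, against 4.18, 3.98 and 3.92 and 4.73, 4.36 and 4.05 in fusion and 4.13, 4.09 and 4.33 and 4.88, 4.91 and 4.68 in GFP/+ arrays. Nkx2-5 differed by -0.89 ± 0.08, and Nppa by -0.22 without a call. The part of heart transcripts in the comparison with GFP- cells was not tested. In the direct fit Myh6 differed by -0.16 (95% interval -0.39 to 0.08) and Myl7 by -0.44 (95% interval -0.78 to -0.10). Neither was called, though the interval of Myl7 lay below 0.

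The promoters of these muscle genes are shown because 21 of the 43 were lower together in the direct fit. Myogenic determination factors bind E-boxes, of which CAGCTG is a form often used in muscle genes. That hexamer, which reads the same on both strands, was searched in the 250 bases before each start in the RefSeq promoter table (GRCm38.p6). It was present in 14 of 41 promoters of the muscle list (34.1%), from 35 of the 43 genes, in 8 of 23 promoters (34.8%) of the 18 matched genes among the 21 lower in the direct fit, in 3 of 27 (11.1%) of somite genes that were kept, and in 4271 of 32851 promoters in all (13.0%). A core of paired-box sites, GTCACGC on either strand, was present in 0 of 41 muscle promoters and in 1.78% of all. The 7 genes of the lower set that hold the E-box are given 5′ to 3′ with up to 30 bases each side, the hexamer in capitals. A match describes the letters only and shows no binding.
Myl1 (chr1:66945245-66945306, minus strand): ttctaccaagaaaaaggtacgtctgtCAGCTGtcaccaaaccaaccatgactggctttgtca
Des (chr1:75360226-75360291, plus strand): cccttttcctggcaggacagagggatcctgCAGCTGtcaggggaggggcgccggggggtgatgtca
Mybph (chr1:134193339-134193404, plus strand): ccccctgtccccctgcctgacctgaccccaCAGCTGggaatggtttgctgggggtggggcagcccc
Tnni1 (chr1:135799323-135799388, plus strand): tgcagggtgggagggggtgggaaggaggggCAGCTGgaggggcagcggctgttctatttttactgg
Tnnt2 (chr1:135836147-135836212, plus strand): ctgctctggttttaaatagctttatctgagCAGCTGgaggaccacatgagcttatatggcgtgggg
Mylpf (chr7:127211527-127211592, plus strand): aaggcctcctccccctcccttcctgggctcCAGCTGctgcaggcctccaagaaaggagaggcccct
Acta1 (chr8:123894961-123895025, minus strand): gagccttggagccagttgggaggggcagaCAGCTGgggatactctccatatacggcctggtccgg

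The hexamer lay 224 bases before the start in Myl1, 221 in Acta1, 79 in Mybph, 68 in Tnni1, 51 in Mylpf and 36 in Des, while Tnnt2 held 2, the nearer at 157. Among these 7 genes Mybph, Mylpf and Acta1 were kept, Myl1 was lost, Tnni1 and Tnnt2 were lower than in GFP- cells, and Des was not called against GFP- cells (-0.28). The letters were thus found in kept, lost and lower genes alike.

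**Figure D3:**
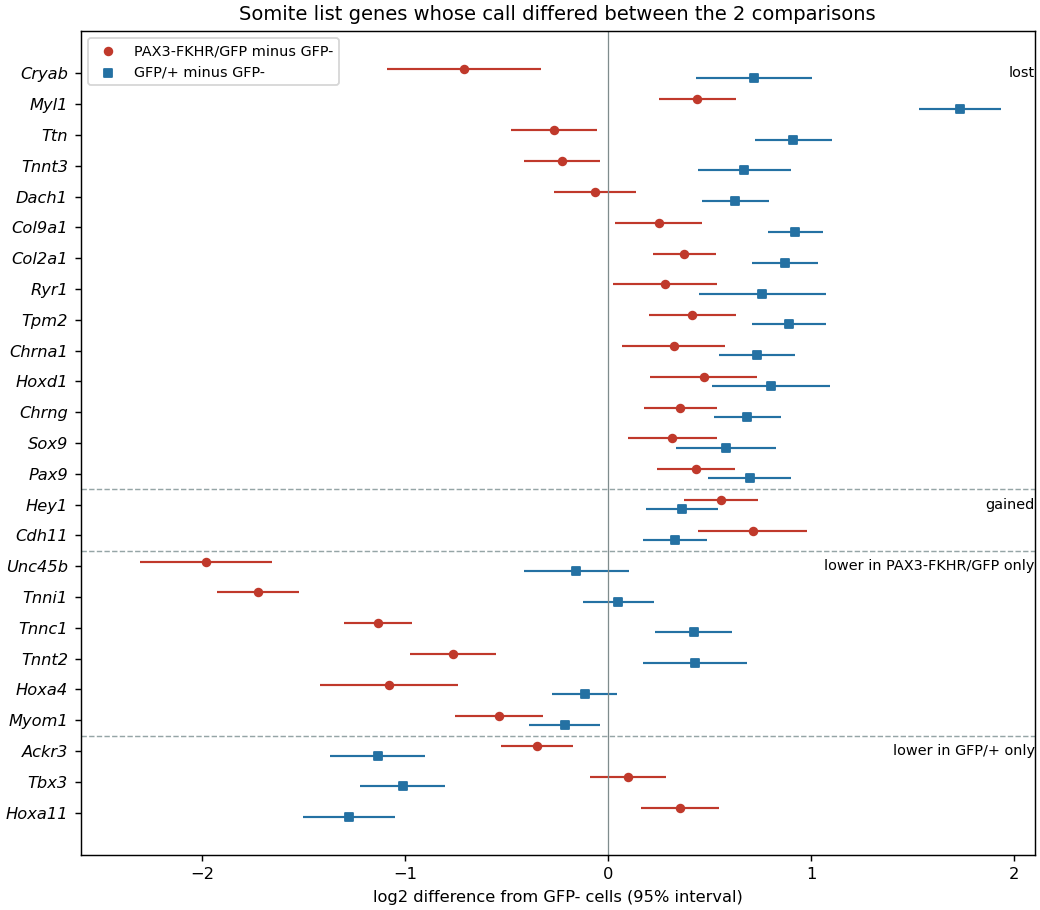
Log2 difference from GFP- cells with its 95% interval (x axis) for the somite list genes (y axis) whose call differed between PAX3-FKHR/GFP cells (circles) and GFP/+ cells (squares), in 4 blocks separated by dashed lines. The blocks hold 14 lost genes, 2 gained genes, 6 genes lower than GFP- in PAX3-FKHR/GFP cells only and 3 lower in GFP/+ cells only, and both sets of points rest on the same 3 GFP- arrays.

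Hox genes, which give cells their position along the body axis, were mostly not called, and those that were called were mostly lower. Of 33 measured 1 was higher and 8 were lower than in GFP- cells, with a median of -0.18, and in GFP/+ cells 2 were higher and 8 lower. Without PAX3-FKHR/GFP replicate 1, Hoxd1 was called higher as well, giving 2 members. The lowest differences were those of Hoxd9 and Hoxd10, posterior members of the D cluster. Hoxd9 read 6.46, 6.51 and 6.62 in fusion cells, 6.65, 6.87 and 6.67 in GFP/+ and 8.98, 9.02 and 9.04 in GFP- cells, so both GFP positive groups lay far below GFP-, the fusion by -2.48 ± 0.07. Hoxd8 (-1.62 ± 0.08), Hoxd10 (-2.30 ± 0.13), Hoxd13 (-1.91 ± 0.11), Hoxa9 (-1.21 ± 0.10), Hoxa10 (-1.22 ± 0.09) and Hoxb1 (-1.89 ± 0.12) were also lower in both. Hoxa4 was lower in fusion cells only, at 4.84, 5.33 and 5.58 against 6.18, 6.18 and 6.28 in GFP/+ and 6.37, 6.36 and 6.25 in GFP- cells (direct difference -0.96 ± 0.16).

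Hoxa11 was lower than GFP- in GFP/+ cells only. It read 6.56, 6.62 and 6.79 in fusion cells, 5.04, 5.20 and 4.84 in GFP/+ and 6.28, 6.39 and 6.24 in GFP- cells. Fusion cells thus had the highest level in all 3 arrays, by 1.63 ± 0.11 over GFP/+, though their difference of 0.35 ± 0.09 from GFP- cells was under the limit. Hoxd3 was kept at 0.67 ± 0.09, and Hoxd1 was counted as lost with a difference of 0.47 in fusion and 0.80 in GFP/+ cells and no call in the direct fit.

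Several signalling genes were higher in fusion cells than in both other groups. FGF signalling feeds back through Sprouty and Dusp inhibitors, and the study describes it as promoting entry into the muscle programme. In the FGF list 8 of 22 measured genes were higher and 3 lower (median 0.18), while in GFP/+ cells 1 was higher and 4 lower. Of the 8, 7 were gained, and 5 of these were higher in the direct fit. The ligand Fgf5 read 5.84, 5.93 and 6.03 in fusion cells, 4.11, 3.98 and 3.84 in GFP/+ and 3.94, 3.56 and 3.74 in GFP- cells, so only the fusion cells stood above the others, by 2.19 ± 0.11 over GFP-. Fgf8 read 4.60, 5.51 and 5.10 against 3.56, 3.71 and 3.55 and 3.68, 3.74 and 3.65, with more spread among fusion arrays and a difference of 1.38 ± 0.18. Fgf18, a ligand shared with GFP/+ cells, was kept at 1.49 ± 0.10. Among feedback genes Spry1 read 10.06, 10.09 and 10.26, 8.62, 8.43 and 8.49 and 8.71, 8.91 and 9.02 in the 3 groups, 1.26 ± 0.10 over GFP- cells, and Dusp4 was higher by 1.37 ± 0.08. Spry2 (0.71 ± 0.08) and Dusp6 (0.59 ± 0.09) were gained without a call in the direct fit, and Dusp6 was not called when fusion replicate 3 was left out (0.49). The ETS factor Etv5 read 8.01, 8.17 and 8.35 in fusion, 6.57, 6.66 and 6.55 in GFP/+ and 7.63, 7.58 and 7.52 in GFP- cells, higher than GFP- in the first and lower in the second. The receptors Fgfr2 (-1.46 ± 0.08) and Fgfr3 (-1.85 ± 0.09) were lower in both.

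In the Wnt list 5 of 29 genes were higher and 7 lower (median -0.03). Wnt16 read 9.19, 9.27 and 9.36 in fusion cells, 6.62, 6.99 and 6.92 in GFP/+ and 5.14, 4.54 and 5.02 in GFP- cells, the fifth largest rise of all genes at 4.37 ± 0.13, and the fusion exceeded GFP/+ by 2.43 ± 0.10. Sp5, a transcriptional target of the pathway, was kept at 2.56 ± 0.12. The antagonist Dkk2 (1.84 ± 0.08), Ankrd6 (0.64 ± 0.08), an intracellular regulator also called diversin, and Tcf7l2 (0.70 ± 0.08) were gained, and all 3 were higher in the direct fit. The ligand Wnt4 (-1.77 ± 0.10) and the antagonist Sfrp1 (-2.0 ± 0.08) were lower in both GFP positive groups, and Notum was 1 of 4 genes lower in fusion cells only (-0.70 ± 0.10, direct -0.71). The canonical target Axin2 differed by -0.01 (95% interval -0.17 to 0.16).

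In the BMP and TGF-beta list 4 of 28 genes were higher and 8 lower (median -0.19). The higher genes were 3 antagonists and 1 ligand. Fst, follistatin, was kept at 3.70 ± 0.14 and Grem1 at 1.36 ± 0.13, while Chrdl1 was gained, at 6.03, 6.12 and 5.86 in fusion cells against 4.94, 4.98 and 4.95 in GFP/+ and 4.72, 4.78 and 4.53 in GFP- cells. Tgfb3 was kept at 1.34 ± 0.08. Bmp4 (-3.21 ± 0.09) and the BMP targets Msx1 (-1.65 ± 0.07) and Msx2 (-2.29 ± 0.07) were lower in both GFP positive groups. Id4 and Tgfb2 were lower than GFP- in GFP/+ cells only, and in the direct fit fusion cells exceeded GFP/+ by 1.26 ± 0.12 and 0.77 ± 0.08. Of 12 Hedgehog genes 3 were higher and 1 lower (median 0.05). These were the co-receptors Boc, kept at 2.56 ± 0.08, and Cdon and Gas1, gained at 1.18 ± 0.11 and 0.65 ± 0.10, and only Cdon of the gained pair was called in the direct fit. Shh itself read 10.65, 10.88 and 10.94 in GFP- cells and differed by -4.07 ± 0.13, while Gli1, a target, differed by -0.13 (95% interval -0.29 to 0.02).

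**Figure D4:**
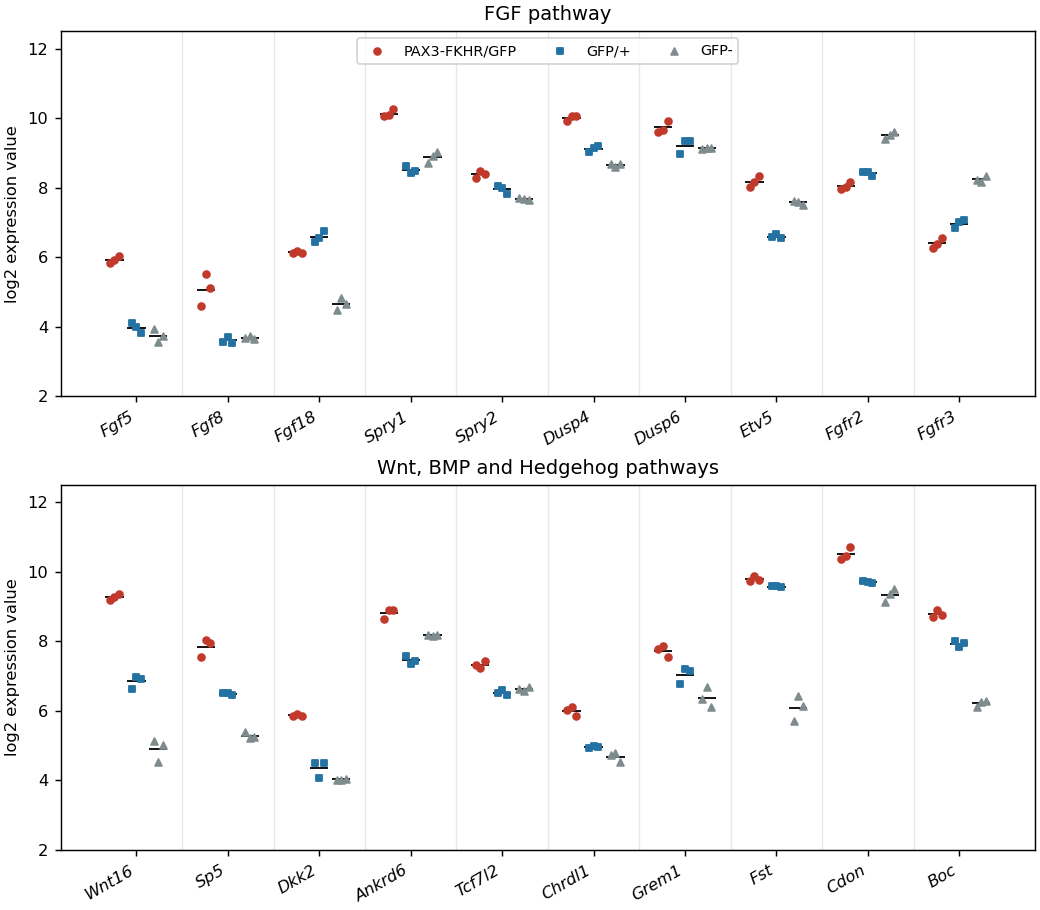
Log2 expression values of single arrays (points) and group means (bars) for genes of the FGF pathway (top) and of the Wnt, BMP and Hedgehog pathways (bottom) in PAX3-FKHR/GFP, GFP/+ and GFP- cells, 3 arrays each. Fusion arrays are the highest for Fgf5, Fgf8, Spry1, Wnt16, Dkk2 and Chrdl1, and GFP/+ arrays are the lowest for Etv5 and Ankrd6.

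Over all genes 245 were kept, 104 lost and 233 gained. In the direct fit 37 of the lost genes were lower and 94 of the gained genes higher. Besides Dmrt2, Myf5, Wnt16, Tcf15, Meox2, Uncx and Pax7, the 10 largest rises were Fap, a cell surface protease, at 5.29 ± 0.09, Dbx1, a homeobox factor of interneurons, at 5.19 ± 0.09, and Sowahb at 4.14 ± 0.10. Dbx1 read 9.89, 10.10 and 10.17 in fusion cells, 7.76, 7.63 and 7.65 in GFP/+ and 4.90, 4.92 and 4.78 in GFP- cells, a stepwise order without overlap. Of gained genes outside the lists Pmaip1, the BH3-only protein Noxa, had the largest direct difference. It read 7.18, 7.45 and 7.32 in fusion cells, 3.77, 3.93 and 3.99 in GFP/+ and 3.99, 3.94 and 4.04 in GFP- cells, so that GFP/+ and GFP- cells overlapped and fusion cells lay 3.33 ± 0.09 above GFP-. Coch (2.68 ± 0.18), Tfap2e (2.05 ± 0.12), Gpr155 (1.74 ± 0.13) and Npr3 (1.76 ± 0.10), a natriuretic peptide receptor, were gained too, and Ppfibp2, Mgat4a and Egln3 completed the 8 with the largest direct difference. Of lost genes outside the lists the largest direct falls were those of Slc15a2 (-1.47), Clstn2 (-1.45), Scube2 (-1.43), Sparcl1 (-1.14), Mamdc2 (-1.05), Adgrg6 (-0.99), Hrc (-0.98) and Pgam2 (-0.97). Hrc, a calcium binding protein of the sarcoplasmic reticulum, and Pgam2, the muscle phosphoglycerate mutase, are muscle genes.

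For 10 genes the calls against GFP- cells ran in opposite directions in the 2 genotypes, 8 of them higher in fusion and lower in GFP/+ cells. Besides Etv5 and Ankrd6 these 8 were Ppfibp2, Mgat4a, Egln3, Mbnl3, Chst15 and Il17rd, an inhibitor of FGF receptor signalling. Ppfibp2 read 9.07, 9.19 and 9.32 in fusion cells, 6.67, 6.60 and 6.65 in GFP/+ and 7.56, 7.68 and 7.63 in GFP- cells. Il17rd read 9.97, 10.15 and 10.38, 8.92, 8.91 and 8.84 and 9.28, 9.38 and 9.52. In both the fusion arrays were the highest and the GFP/+ arrays the lowest. Cryab and Slc15a2 were higher in GFP/+ and lower in fusion cells. Of the 9 genes with another probe set, the pair of opposite calls was repeated by another probe set in Chst15 only.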

How the data were processed

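GFP positive and GFP negative cells sorted from interlimb somites of pooled mouse embryos were hybridised to Affymetrix arrays of 45101 probe sets, 3 per group. The deposited values are log2 expression values that the authors made with RMA, per the labels, which background-corrects, quantile-normalizes and summarizes probes, so array distributions are alike and no depth applies; the number of arrays limits the precision. The RMA version is not given in the sources used here, and scanner files and absence calls were not used here. Left out were 64 control probe sets.

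Each comparison was fitted with limma 3.58.1 (R 4.3.3; lmFit, eBayes with an intensity trend) on the 2 groups compared, over all probe sets, with Benjamini-Hochberg adjustment. Calls needed an adjusted p below 0.05 and a log2 difference of 0.5 or more. Symbols came from the platform annotation: 34945 probe sets had 1 symbol, 932 several and 9160 none. Each of 18193 genes was read by its brightest single-symbol probe set. Of 397 list symbols 373 were measured. The members and gene lists were chosen with earlier results of these data known. Named were Pax3, Foxo1, the 10 largest rises and falls, list members with the largest changes in each direction and some not called, lost and gained somite genes, and the 8 largest direct differences among other lost and gained genes. Others were named after their values were seen. The scripts were tested on simulated data. Alternatives were the local pooled error test of the study's methods, another fit, probe set rule, filter, normalization or limit, the replicate number as a block, and leaving out each array. Promoter sequences were read from RefSeq (GRCm38.p6). With 3 arrays against 3, an exact permutation test cannot go below 0.1, so none was used.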

Additional observations from a re-analysis of the deposited data

Results flagged for a closer look

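In 10 genes every PAX3-FKHR/GFP array lay on one side of the GFP- arrays and every GFP/+ array on the other, with both differences called. Their direct log2 differences, PAX3-FKHR/GFP minus GFP/+ cells, were 2.55 for Ppfibp2, 2.17 for Mgat4a, 1.86 for Egln3, 1.58 for Etv5, 1.52 for Mbnl3, 1.36 for Ankrd6, 1.34 for Chst15 and 1.28 for Il17rd, and -1.43 for Cryab and -1.47 for Slc15a2. All 10 were called in the direct limma fit. Ppfibp2 has no other probe set. Of the other 9 genes Chst15 alone repeated both opposite calls by another probe set (0.70 in PAX3-FKHR/GFP and -0.57 in GFP/+ cells against GFP-), and the other probe sets of Etv5, Ankrd6, Egln3, Il17rd, Mbnl3, Mgat4a, Cryab and Slc15a2 did not. Of these 8 genes Etv5, Ankrd6, Egln3, Il17rd, Mbnl3 and Cryab had another probe set called the same way in the direct fit, and Mgat4a (0.06) and Slc15a2 (0.04 and 0.06) had none.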

How the results depend on the processing

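No gene called in the comparison with GFP- cells was called in the opposite direction under any alternative. With the replicate number as a block 480 genes were higher and 953 lower, and all 1424 calls were kept. Same-numbered PAX3-FKHR/GFP and GFP- arrays deviated together at r of -0.04, -0.02 and 0.10, and GFP/+ and GFP- arrays at 0.09, 0.06 and 0.01. With 3 arrays per group these values cannot settle whether same-numbered arrays were handled together. The local pooled error test gave 4 gained somite genes in place of 2. The mean over a gene's probe sets gave 1 lower sclerotome member in place of 0. A log2 limit of 1 left 178 genes higher and 415 lower, 5 lost somite genes, 5 lower muscle members, 1 lower paraxial member and 0 higher Hox members. With no log2 limit 803 genes were higher and 1456 lower, with 6 gained somite genes, 3 lower sclerotome members and 3 higher Hox members. Fgfr4 turned to 0.96 with probe sets ending in _s_at or _x_at left out and by another of its probe sets, and Grhl2 to -1.25 by another probe set, an alternative chosen after seeing the data.

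Leaving out 1 array gave 431 to 538 genes higher and 894 to 971 lower, 35 to 37 kept, 13 to 17 lost and 1 to 4 gained somite genes. Higher and lower members ran from 10 to 10 and 3 to 4 for dermomyotome, 12 to 14 and 6 to 7 for muscle, 7 to 7 and 0 to 2 for sclerotome, 6 to 8 and 4 to 4 for paraxial mesoderm, and 1 to 2 and 8 to 8 for Hox. Causes of these changes were not tested.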
